A study of Mus musculus with 14 samples.

Results

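Neuroendocrine small cell lung cancer cells of the mouse were compared at day 7 and day 0 of YAP5SA, a mutant of the coactivator YAP that lacks the sites where Hippo kinases phosphorylate it. The comparison takes every gene of the count table in the libraries labelled YAP5SA day 0 and day 7, which are 4 of the 14 RNA-seq libraries of the series, 2 a day. The remaining libraries are labelled NE (neuroendocrine, n = 3), Non-NE (n = 3) and YAP5SA days 3 and 21 (n = 2 each). Per the labels, all 4 are small cell lung cancer cells from lung tumours of adult mice of mixed strain, carrying CGRPCreER/+ and floxed tumour suppressor alleles that include Rbf/f and P53f/f, and grown in Hites medium. The mice were given TM (tamoxifen, which activates CreER), so that Cre acted in cells that use the calcitonin gene-related peptide promoter, as pulmonary neuroendocrine cells do. The transgenes Rosa26rtTA and Tet-onYAP5SA, which put YAP5SA under a tetracycline-responsive switch, are listed for day 0 replicate 2 and both day 7 libraries, but not for day 0 replicate 1. For that library the genotype text also spells the P53f/f allele otherwise than its source text does, and the source text was followed. The labels do not say how many lines or clones were used, nor name the inducer.

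YAP and its paralogue TAZ have no DNA-binding domain and act on genes through the TEAD factors. The Hippo kinases MST1/2 (Stk4, Stk3) and LATS1/2 phosphorylate YAP and keep it out of the nucleus, and several of their regulators are themselves YAP targets. In the lung, YAP activity is known for its part in the flat alveolar type I cells that form the gas-exchange surface, whereas neuroendocrine tumour cells are typically low in YAP and express a neuronal and secretory program.

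Some facts of the libraries bear on every result. The 4 libraries held 9788032 and 9999781 counts at day 0 and 10349392 and 10324520 at day 7. Day 0 replicate 1, the library whose label lists no transgene, had at least as many counts as NE replicate 2 for each of the 32926 genes, and NE replicate 2 came to 85.7% of its total, a pattern that libraries sharing reads would give. The counts of called genes are therefore also given without it. The labels do not say that the libraries of a day came from separate cultures, so p-values measure only the spread between these libraries, which may be technical (biological coefficient of variation 0.0548). Without a labelled library of cells lacking YAP5SA at day 7, the transgene and time in culture cannot be told apart. In bulk RNA, fewer cells of a type and less RNA per cell cannot be told apart either. Mitochondrial transcripts held 3.66% and 3.85% of counts at day 0 and 2.85% and 2.86% at day 7, and their part in the results was not tested.

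By day 7 most of the transcriptome had moved, and the steep changes were mainly rises. Of 13996 genes tested, 9932 (71.0%) differed between the days at an adjusted p under 0.05 in edgeR's quasi-likelihood test with Benjamini-Hochberg adjustment, 5208 higher (37.2%) and 4724 lower (33.8%). List counts below are to be read beside these shares of higher and lower genes. Changes of at least 2-fold were called for 2575 higher (18.4%) and 1796 lower genes (12.8%), at least 8-fold for 947 and 197, and at least 32-fold for 543 and 24. Seen from detection alone, 76 genes had 0 counts in both day 0 libraries and at least 5 counts per 1000000 counts of the TMM-scaled library (CPM; TMM is the trimmed mean of M-values) in both day 7 libraries, and 0 genes showed the reverse. Without day 0 replicate 1, 4721 genes were higher (32.9%) and 4190 lower (29.2%), 2562 and 1770 by at least 2-fold, 994 and 210 by at least 8-fold and 614 and 28 by at least 32-fold, with the lone day 0 library assumed to vary like the other groups. Scaling by library totals in place of TMM moved the median log2 change of all genes by -0.20 (from 0.03 to -0.17) and the calls to 4149 higher (29.6%) and 6116 lower (43.7%), from 52.4% to 40.4% higher. With NE replicates 1 and 3 as the control in place of day 0, 3154 were higher (21.3%) and 2784 lower (18.8%) of 14820 tested. This fit held all libraries but NE replicate 2, so the estimated spread of each gene changed along with the control. A call could thus be lost there without a smaller change. For Nkx2-1 the log2 change was -0.48 with either control, and for Bok -1.18 against day 0 and -1.20 against NE. Changes near or below 2-fold also lost their call in a test against a 2-fold change, which is not repeated below.

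**Figure D1:**
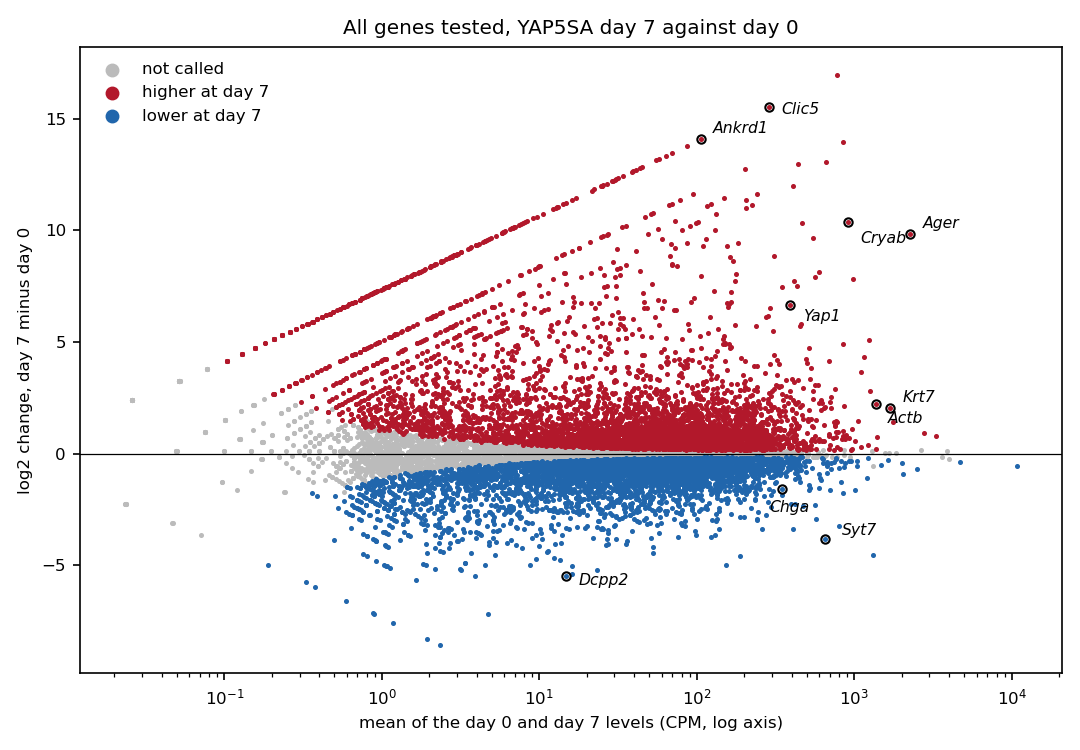
Each point is a gene tested, with the mean of its day 0 and day 7 levels in CPM on the x axis (log) and the fitted log2 change on the y axis, n = 2 libraries a day. Red is called higher, blue called lower and grey not called, and 17 tested genes at 0 on both days are not drawn. Rises reach further than falls, and the straight upper edge is made of genes at 0 on day 0, whose fitted change depends on a prior count.

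Yap1 checked the labels. It stood at 7.96 and 7.21 CPM at day 0 and 750 and 808 CPM at day 7, 102.6-fold higher (edgeR log2 change 6.68, SE 0.12, adjusted p = 3.9e-24). The groups did not overlap, and the count holds transcripts of the transgene and of the gene on chromosome 9 (7931999 to 8004596, minus strand, mm10) together. The level was already below that of day 3 (mean 1153 CPM; log2 change -0.57 from day 3 to day 7). Of the floxed genes, Rb1 was at 79.8 and 77.5 CPM at day 0 and 30.1 and 31.8 CPM at day 7, 2.54-fold lower. Trp53 was 2.08-fold lower (11.85 and 13.6 against 6.44 and 5.80 CPM). Gene counts do not show which exons were read, and hence nothing about the deletion.

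The partners and targets of YAP rose with few exceptions. Of 9 tested YAP, TAZ and TEAD genes 8 were higher and 0 lower, and of 24 tested YAP/TAZ targets 19 were higher and 2 lower, with a median log2 change of 5.81 against 0.03 over all genes. The list holds 26 targets, and Foxf2 and Rbms3 failed the count filter. A gene near 0 at day 0 could pass that filter only by rising on a later day, so the counts and medians of such lists are in part fixed by it. The targets shown here, chosen for the number of TEAD core matches and then the size of the rise, have the following promoters in RefSeq (GRCm38.p6), shown as the 250 bases before the start, 5′ to 3′. Capitals mark GGAATG or its reverse complement CATTCC, the core that TEAD factors bind. They are Ankrd1 (chr19:36119845-36120094, minus strand), Ajuba (chr14:54577662-54577911, minus strand), Cyr61, also named Ccn1 (chr3:145649986-145650235, minus strand), Amotl2 (chr9:102717554-102717803, plus strand) and Ptpn14 (chr1:189728018-189728267, plus strand).
Ankrd1: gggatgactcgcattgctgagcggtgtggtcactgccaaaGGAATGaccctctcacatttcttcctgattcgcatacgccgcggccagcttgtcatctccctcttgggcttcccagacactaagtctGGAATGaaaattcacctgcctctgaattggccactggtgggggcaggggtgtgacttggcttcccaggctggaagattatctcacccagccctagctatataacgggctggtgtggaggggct
Ajuba: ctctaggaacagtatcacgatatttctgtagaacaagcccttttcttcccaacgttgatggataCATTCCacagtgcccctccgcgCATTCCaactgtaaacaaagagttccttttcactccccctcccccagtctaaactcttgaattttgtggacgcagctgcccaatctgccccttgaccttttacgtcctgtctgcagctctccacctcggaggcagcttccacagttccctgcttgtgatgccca
Cyr61: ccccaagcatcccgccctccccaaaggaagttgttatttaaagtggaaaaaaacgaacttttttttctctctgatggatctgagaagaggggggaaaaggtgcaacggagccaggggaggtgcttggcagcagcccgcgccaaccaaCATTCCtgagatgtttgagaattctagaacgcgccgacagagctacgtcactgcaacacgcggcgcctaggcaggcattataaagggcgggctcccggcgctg
Amotl2: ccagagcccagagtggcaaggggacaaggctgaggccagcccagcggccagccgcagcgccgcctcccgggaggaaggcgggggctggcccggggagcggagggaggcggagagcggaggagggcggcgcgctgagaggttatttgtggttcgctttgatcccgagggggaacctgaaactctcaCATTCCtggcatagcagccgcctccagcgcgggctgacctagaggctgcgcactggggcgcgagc
Ptpn14: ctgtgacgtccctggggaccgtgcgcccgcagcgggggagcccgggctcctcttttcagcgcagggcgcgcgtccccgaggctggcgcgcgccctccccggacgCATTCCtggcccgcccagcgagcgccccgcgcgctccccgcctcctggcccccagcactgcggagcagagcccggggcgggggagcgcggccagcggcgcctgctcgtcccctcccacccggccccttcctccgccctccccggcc

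The matches began 210 and 123 bases before the start of Ankrd1, 186 and 164 before Ajuba, 103 before Cyr61, 65 before Amotl2 and 146 before Ptpn14. Of the 13930 promoters of tested genes, 1508 (10.8%) held the core on either strand in the same window, so a match is a description and not a binding site. Among the 18 listed targets with a promoter sequence 7 held the core, and the targets shown were picked from these 7. Only 73.1% of the genes higher by at least 8-fold and 69.2% of the target list had a promoter sequence in the table, so a comparison of motif shares between gene sets is void.

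These targets went from few or no counts to high levels. Ankrd1, a muscle ankyrin-repeat protein, had 0 counts in both day 0 libraries and 216 and 208 CPM at day 7, at least 1499-fold higher against a floor of 3 counts over the day 0 libraries. The secreted matricellular protein gene Cyr61 was at 0.19 CPM in both day 0 libraries and at 825 and 800 CPM at day 7, 4048-fold higher (edgeR log2 change 11.98, adjusted p = 3.8e-24). With so few day 0 counts the size of this fold is uncertain. Ctgf, a relative of Cyr61, went from 0 to 128 CPM in both libraries and Wisp1 from 0 to 169.7 and 174.9 CPM. Ajuba, a LIM protein that restrains LATS, stood at 0.19 CPM in both day 0 libraries and at 409.6 and 412 CPM at day 7. Amotl2, which binds YAP at junctions, rose from 3.602 and 4.87 to 1181 and 1182 CPM. The phosphatase Ptpn14 rose 108-fold to 306 CPM in both libraries. None of these groups overlapped, as for 86.8% of all genes tested. Axl, a receptor tyrosine kinase often read as a YAP target, was at 11.6 and 10.6 CPM at day 7 from 1 count in each day 0 library, so its ratio of 118 has a 95% exact counting interval from 32.2 to 979. Asap1, Igfbp3 and Fstl1 were not called, but Asap1 was called lower with library totals (log2 change -0.32), where 3 targets were lower. Arhgef17 fell by 0.88 on the log2 scale, and the small fall of Dock5 (log2 change -0.21, adjusted p = 0.0476) lost its call without any one of the 4 libraries, with DESeq2, with no count filter and with the replicate block, and its change was 0.46 with the NE control. Fstl1 was higher there by 4.14 (adjusted p = 3.2e-05).

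Among the DNA-binding partners, Tead4 went from 0 to 87.5 and 86.7 CPM, at least 616-fold. Tead1 was the more abundant partner and rose from 219 and 216 to 1018 and 1052 CPM. Tead3 rose from 14.5 and 15.9 to 25.8 and 24.2 CPM, but with NE replicates 1 and 3 as the control its change was -0.75 (adjusted p = 0.103), and 7 of the 9 genes were higher there. Tead2 stayed near 4 CPM (3.79 and 3.47 against 4.26 and 4.25; adjusted p = 0.376). Wwtr1, which encodes TAZ, had 0 counts at day 0 and 0.104 and 0.414 CPM at day 7. Its call (adjusted p = 0.0183) was lost with the 4 libraries of these days alone and without day 0 replicate 1, day 0 replicate 2 or day 7 replicate 2. The call was also lost in the test against a 2-fold change, although the fitted log2 change was 4.47. TAZ transcripts thus stayed near the floor of 0.156 CPM.

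Hippo kinases and their regulators rose too. Of 24 tested genes 21 were higher and 2 lower, 12 and 1 of them by at least 2-fold, and Fat4 and Dchs1 failed the filter. The kinase Lats2 had 3 counts in all at day 0 and 413 and 406 CPM at day 7, a ratio of 2897 (95% exact counting interval 991 to 14049). Of its annotated exon length 45.7% overlaps a predicted gene, so part of the reads could be assigned elsewhere. Its paralogue Lats1 differed little (102.7 and 97.8 against 114.7 and 121 CPM, log2 change 0.24), and its call was lost without day 0 replicate 2, without day 7 replicate 2 and with library totals (0.03). The scaffold Wwc1 (KIBRA) rose 5.88-fold, Stk4 2.17-fold and Nf2, the merlin tumour suppressor, 1.73-fold. Stk3 rose by only 0.37 on the log2 scale. Its call was lost with library totals (0.17) and with NE replicates 1 and 3 as the control (0.44). Taok2 and Tnik were the lower members, with log2 changes of -0.53 and -1.09. With library totals 18 of the 24 were higher, still with 2 lower. With NE replicates 1 and 3 in place of day 0, the list had 14 higher and 0 lower, and the calls of Taok2 and Tnik were lost, while the change turned to -0.06 for Lats1. Stk3, Lats1 and Tnik lost the call when all 14 libraries were fitted.

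**Figure D2:**
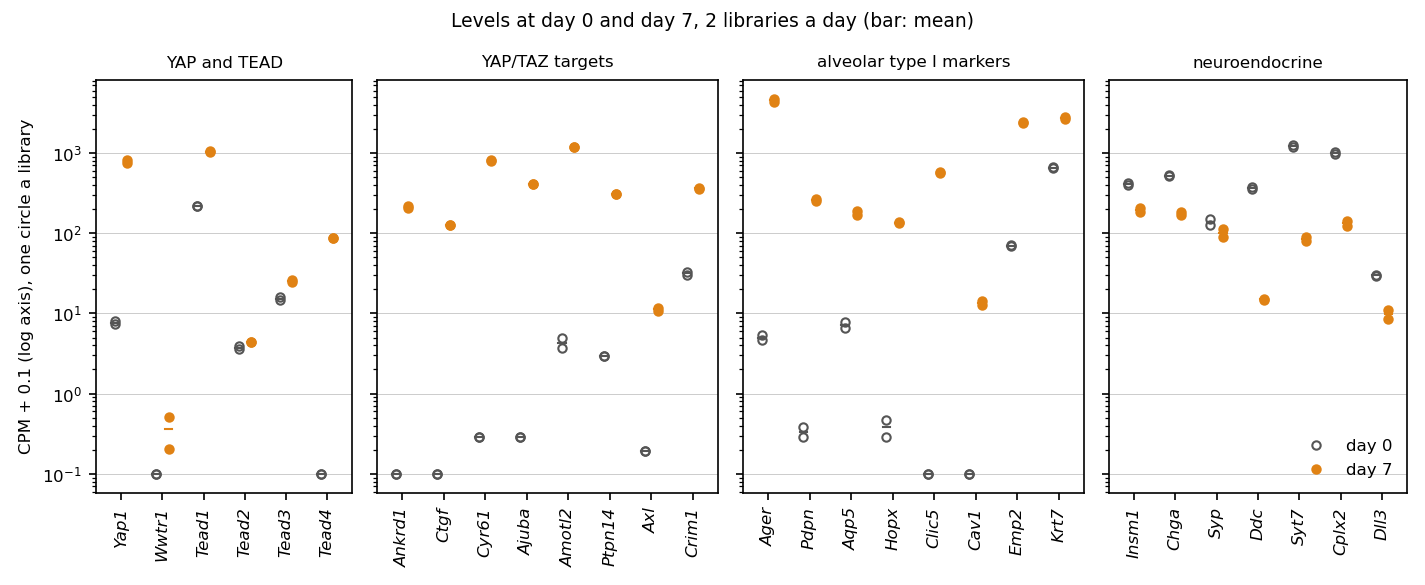
Each circle is the level of a gene in 1 library as CPM + 0.1 on a log axis, open for day 0 and filled for day 7, with a bar at the mean of n = 2. Targets and alveolar type I markers lie above their day 0 values and the neuroendocrine genes below, while Tead2 at about 4 CPM hardly moves.

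Every tested marker of alveolar type I cells was higher at day 7. Of 25 listed markers 24 were tested and 24 were higher, against 37.2% of all genes, with a median log2 change of 5.96. Markers near 0 at day 0 could pass the count filter only by rising later. The filter thus in part fixed the share of higher markers and the median. Cldn18 had 0 counts in all 4 libraries. Ager, the receptor for advanced glycation end products that coats these cells, was at 4.55 and 5.24 CPM at day 0 and 4748 and 4287 CPM at day 7, 920-fold higher (edgeR log2 change 9.85, SE 0.20, adjusted p = 7.0e-20). Its gene lies on chromosome 17 from 34597862 to 34600936 (plus strand), and its rise in CPM was the largest of all genes tested. The chloride channel protein Clic5 went from 0 to 581 and 563 CPM, at least 4048-fold. The podoplanin gene Pdpn rose from 0.284 and 0.187 to 269 and 253 CPM. The water channel Aqp5 rose 25.1-fold to 187 and 170 CPM, and Hopx, a homeodomain cofactor, from 0.190 and 0.375 to 134.6 and 136 CPM. Emp2 reached 2398 and 2449 CPM, Gprc5a 2007 and 1876 CPM, and the kinase anchor Akap5 835 and 804 CPM. Type I cells are also rich in collagen IV chains, and Col4a3 rose 701-fold. Caveolin-1 (Cav1), a defining protein of their membrane pits, was only at 14.03 and 12.7 CPM, from 0. The smallest rise of the list was Vegfa (528 and 499 to 984 and 1038 CPM, 1.97-fold).

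The keratin Krt7 belongs to the list and was already abundant at day 0 (646 and 668 CPM), reaching 2788 and 2645 CPM. Its call was lost in the fit of all 14 libraries (adjusted p = 0.425) and with NE replicates 1 and 3 as the control (adjusted p = 0.286). Markers of the neighbouring alveolar type II and club cells gave a mixed picture, with 7 of 11 tested higher and 1 lower of 15 listed, or 3 and 1 with that control. The aspartic protease Napsa rose 48.2-fold to 70.8 and 66.6 CPM, but its exons overlap another gene over 16.7% of their length. The surfactant gene Sftpc fell from 3.51 and 3.75 to 0.312 and 0.104 CPM, Sftpb was under 0.5 CPM throughout, and Lamp3 was at 0. Slc34a2 and Sftpd appeared from 0 at 4.04 to 5.80 CPM. Scgb1a1, the club cell secretory protein, stayed at or below 0.207 CPM.

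Basal, ciliated and tuft cell markers were low on both days. Of 11 tested of 19 listed, 6 were higher and 4 lower, and their summed level was 33.6 to 35.0 CPM at day 0 and 30.3 to 31.2 CPM at day 7. The basal keratin Krt14 appeared from 0 at 7.69 and 10.4 CPM, whereas Krt5 had 0 counts in all 4 libraries and Trp63 1 count. The ciliated cell factor Foxj1 fell from 4.93 and 4.21 to 0.624 and 0.207 CPM. The call of Foxj1 was lost with NE replicates 1 and 3 as the control and in the fit of all 14 libraries. The tuft cell factor Pou2f3 had 1 count in all.

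Markers of cells that could accompany a culture were checked next. Fibroblast markers summed to 6.37 to 7.30 CPM at day 0 and 13.98 to 15.6 at day 7, with 4 of 5 tested members of 10 listed higher and 0 lower and Col1a1 at or below 0.624 CPM. Leukocyte markers summed to 6.93 to 7.49 and 65.9 to 67.9 CPM, the rise being that of Csf1r, which appeared from 0 at 59.9 and 63.7 CPM, while the defining marker Ptprc was at 0 in all 4. Their part in the results was not tested. Endothelial markers summed to 370.5 to 384.7 and 125 to 126.9 CPM, nearly all of it Vwf (370 and 384 CPM falling to 124.7 and 123), while Cdh5, Cldn5 and Emcn were at 0. Mesothelial markers rose from 0.474 to 0.749 to 163 CPM in both day 7 libraries, through Msln (0 to 110 CPM), Upk1b and Upk3b, with Wt1 at 0.831 and 1.14 CPM. No erythroid marker exceeded 0.190 CPM in sum.

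Neuroendocrine genes fell, but to different depths. Of 27 listed transcription factors 21 were tested, 14 lower and 4 higher, with a median log2 change of -0.94. Insm1, a zinc-finger factor of neuroendocrine cells, was 2.10-fold lower (403 and 420 against 207 and 185 CPM). St18 and Myt1l, which belong to a family of neural zinc-finger factors, fell 12.7-fold and 13.7-fold. The lung and endoderm factors Nkx2-1 (816 and 752 against 574 and 551 CPM), Foxa1 and Foxa2 had log2 changes of -0.48, -1.30 and -0.63. Neurod1 had 1 count in the 4 libraries. The higher members were Myc (30.05 and 29.4 to 179 CPM in both libraries), Mycn, Sox4 and Sox11, while the third MYC gene, Mycl, fell from 79.7 and 74.3 to 26.0 and 24.1 CPM. Set against NE replicates 1 and 3, the list had 0 higher and 12 lower, and the calls of Nkx2-1, Foxa2, Mycn, Sox4, Sox11 and Mycl were lost, while the change turned to -1.66 for Myc (called lower, adjusted p = 0.00014). A fit of all 14 libraries did not call Nkx2-1, Foxa2, Myc, Sox4, Sox11 and Mycl.

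Among the neuroendocrine cell markers checked, Calca was at 0 throughout, although its promoter is the one that drives Cre. Uchl1 was at 261 and 267 CPM at day 0 and 187 and 184 CPM at day 7, and Syp at 128 and 151 against 113 and 89.4 CPM. Ncam1 went the other way, from 61.6 and 64.3 to 118 and 119 CPM. The call of Syp (log2 change -0.47) was lost with NE replicates 1 and 3 as the control (-0.29) and in the fit of all 14 libraries. The cells were thus neuroendocrine by Insm1, Chga, Syp and Uchl1 at day 0, and each of these 4 was detected at day 7.

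The secretory machinery fell with the factors. Of 23 tested granin, hormone and processing genes 20 were lower and 2 higher, of 28 listed, and without day 0 replicate 1 they were 17 and 2. The granule protein chromogranin A, Chga, was at 527 and 515 CPM at day 0 and 184 and 166 CPM at day 7, 2.97-fold lower. The prohormone convertase Pcsk2 fell 7.18-fold to 50.2 and 47.2 CPM. The enzymes of amine synthesis fell steeply, Ddc from 351 and 374 to 14.7 and 15.0 CPM (24.4-fold) and tyrosine hydroxylase, Th, from 140.0 and 141.8 to 11.7 and 9.01 CPM. Vgf, a granin relative, rose 3.57-fold to 334 and 296 CPM, and carboxypeptidase E, Cpe, rose by 0.48 on the log2 scale. NE replicates 1 and 3 as the control gave other counts, since the list had 3 higher and 5 lower, and the call of Th was lost. Fitted with all 14 libraries, Cpe fell short of the threshold.

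Synaptic vesicle genes were lower in 24 and higher in 8 of 33 tested (35 listed, median log2 change -0.56). The calcium sensor of exocytosis Syt7 fell from 1178 and 1251 to 89.4 and 79.2 CPM, 14.4-fold. The complexins, which clamp the fusion machinery, moved apart. Cplx2 fell from 969 and 1040 to 143 and 121.5 CPM, while Cplx1 rose from 3.22 and 3.37 to 330 and 292 CPM, 94.0-fold. Cplx1 was also high at day 7 alone, with means of 13.6 CPM at day 3 and 14.7 CPM at day 21 (log2 change 4.51 from day 3 and -4.40 to day 21). Voltage-gated and potassium channel genes were lower in 21 and higher in 10 of 32 tested of 38 listed, with the potassium channel Kcnc1 8.24-fold lower. Against the NE control (replicates 1 and 3), the synaptic vesicle and exocytosis list had 5 higher and 11 lower and the voltage-gated and potassium channels list had 6 higher and 18 lower.

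The Notch pathway, which holds neuroendocrine fate in check, showed no shared direction, with 7 higher and 10 lower of 24 tested. These are 29.2% and 41.7%, against 37.2% and 33.8% of all genes. The receptor Notch2 rose to 54.15 and 55.3 CPM from 14.3 and 13.4, and its ligand Jag1 and effector Hes1 rose by 1.44 and 0.80 on the log2 scale. The effector Hey1 fell from 47.6 and 43.1 to 7.28 and 6.42 CPM, and Dll3, an inhibitory Notch ligand, from 30.05 and 29.2 to 10.9 and 8.49 CPM. Rest, the repressor of neuronal genes, had 2 counts in all at day 0 and 15.7 and 13.8 CPM at day 7, a ratio of 156 (95% exact counting interval 42.9 to 1297). Srrm4, the splicing factor that produces a weakened REST in neuronal cells, fell by 1.44 on the log2 scale. Where NE replicates 1 and 3 replaced day 0, the list had 7 higher and 8 lower, and the call of Dll3 was lost. A fit of all 14 libraries did not call Hes1 and Dll3.

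**Figure D3:**
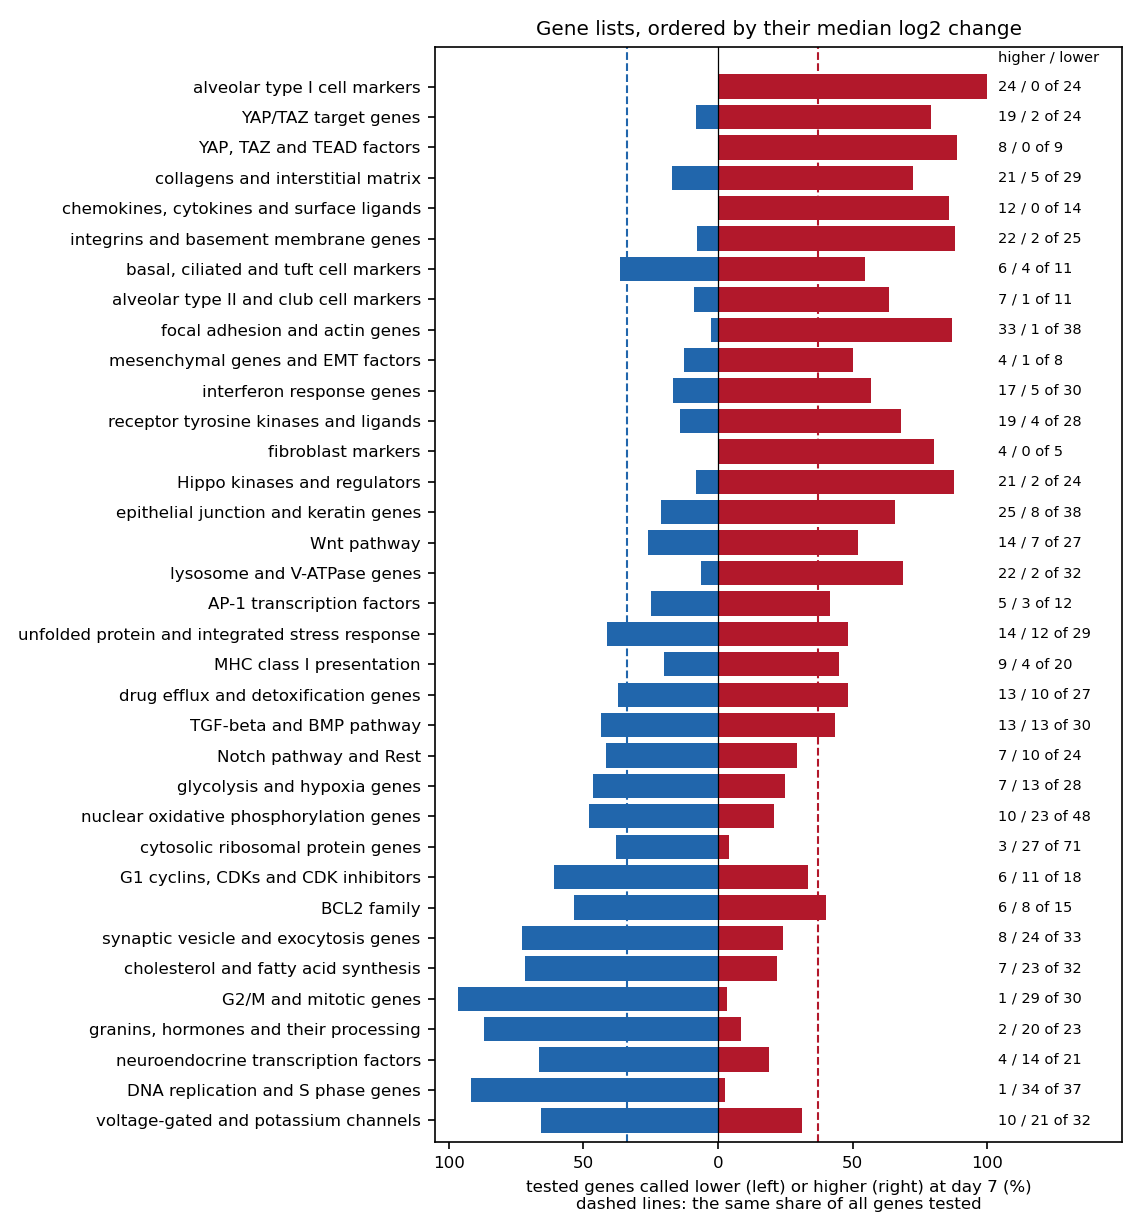
For each list with at least 5 tested genes, bars give the percentage of tested genes called higher (red, right) or lower (blue, left) at day 7 with edgeR, and dashed lines give the same for all 13996 genes (37.2% and 33.8%). Lists are ordered by median log2 change, with alveolar type I markers at the top and voltage-gated and potassium channels at the bottom.

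Cytoskeletal and adhesion genes rose as a broad group. Of 38 tested focal adhesion and actin genes 33 were higher and 1, the non-muscle myosin Myh10, was lower (39 listed, median log2 change 1.55). Filamin A (Flna) rose from 71.1 and 74.5 to 565 and 533 CPM and talin (Tln1) from 106.6 and 115 to 608 and 576.5 CPM. Some cytoskeletal genes outside the list were named for the size of their rise. Moesin (Msn), which ties actin to the membrane, had 2 counts in all at day 0 and 856 and 890 CPM at day 7, and Actb rose from 481 and 486 to 2315 and 2176 CPM. Tns1, which links integrins to actin, rose from 1 count in all to 432 and 383 CPM, and the unconventional myosin Myo1c rose 20.0-fold to 2240 and 2160 CPM. Ilk was at or below 0.621 CPM throughout, and 98.7% of its exon length overlaps other genes, so its low level is uncertain. NE replicates 1 and 3 as the control gave other counts, since the list had 23 higher and 1 lower.

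Integrins and basement membrane genes were higher in 22 and lower in 2 of 25 tested (29 listed). The laminin-binding integrin Itga3 rose from 157 and 168 to 2115 and 1983 CPM, 12.6-fold, and Itgb6, which activates latent TGF-beta, from 0.758 and 0.843 to 89.8 and 92.7 CPM. Laminin chains, the ligands of this integrin, included Lama3 and Lamb3. Lama3 appeared from 0 at 45.6 and 43.8 CPM and Lamb3 reached 227.5 and 208 CPM. Collagens and interstitial matrix genes were higher in 21 and lower in 5 of 29 tested, and 13 of 42 listed failed the filter. Sparc, a collagen-binding glycoprotein, had 3 counts in all at day 0 and 1355 and 1297 CPM at day 7, and Thbs1 rose from 47.6 and 59.8 to 1623 and 1656 CPM. The fibronectin gene Fn1 reached only 7.59 and 6.52 CPM, and Col18a1 fell by 0.54 on the log2 scale. With NE replicates 1 and 3 in place of day 0, the integrins and basement membrane list had 12 higher and 0 lower and the collagens and interstitial matrix list had 13 higher and 1 lower, and the call of Col18a1 was lost. Fitting all 14 libraries ended the call of Col18a1 too.

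Epithelial genes were reshaped rather than lost, with 25 of 38 tested higher and 8 lower. The E-cadherin gene Cdh1 was at 877 and 911 against 1015 and 1009 CPM, a change of 0.18 on the log2 scale whose call was lost with library totals, where its sign turned (log2 change -0.02), and without any one of the 4 libraries. Krt19 rose from 3.89 and 4.03 to 694 and 690 CPM, and Cldn4, a tight junction claudin, from 6.07 and 6.37 to 351 and 331 CPM. The ETS factors Elf3 and Ehf fell 4.48-fold and 7.68-fold, and Epcam from 856 and 844.5 to 368 and 372 CPM. Of 17 listed mesenchymal genes 9 failed the filter, and of the 8 tested 4 were higher and 1 lower (2 and 0 with the NE control), their sum going from 186 to 190 CPM at day 0 to 244 to 245 CPM at day 7. N-cadherin, Cdh2, rose by 0.73 and the homeobox gene Prrx2 by 4.13 on the log2 scale, and Tcf4 was the lower one. Vim was at 0 in both day 0 libraries and 0.208 and 0.104 CPM at day 7 (adjusted p = 0.0607). Only limma-voom called it higher (adjusted p = 0.033). Zeb2 and Twist1 were at 0. Set against NE replicates 1 and 3, the epithelial list had 15 higher and 6 lower, and the calls of Ehf, Cdh2 and Tcf4 were lost, while the change turned to -0.21 for Cdh1. Cdh1 lost the call when all 14 libraries were fitted.

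Proliferation genes fell together. Of 30 G2/M genes 29 were lower and 1 higher, and of 37 DNA replication and S phase genes 34 were lower and 1 higher, with medians of -0.86 and -0.97 on the log2 scale. Mki67, the standard proliferation marker, was at 1113 and 1209 CPM at day 0 and 481 and 470.5 CPM at day 7, 2.44-fold lower (edgeR log2 change -1.29, SE 0.08, adjusted p = 6.5e-14). The topoisomerase Top2a fell from 1035 and 1073 to 336.5 and 340 CPM. The replication clamp gene Pcna fell from 249 and 266 to 97.3 and 102 CPM. The higher members were Foxm1, the transcription factor of mitotic genes, by 0.37 (0.17 and not called with library totals), and Rrm1, a ribonucleotide reductase subunit, by 0.39 on the log2 scale. Its partner Rrm2 fell by 1.02. All were tested, so the filter took no part in these counts. NE replicates 1 and 3 as the control gave other counts, since the G2/M and mitotic list had 0 higher and 23 lower and the DNA replication and S phase list had 0 higher and 33 lower, and the calls of Foxm1 and Rrm1 were lost. A fit of all 14 libraries did not call Foxm1, Rrm1 and Rrm2.

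The cyclins and inhibitors of G1 were mainly lower, with the D-type cyclins going the other way. Of 18 tested G1 genes 6 were higher and 11 lower (median log2 change -0.47). Cyclin D1, Ccnd1, rose from 46.9 and 44.5 to 373 and 341 CPM, 7.81-fold, and 21.9% of its exon length overlaps a neighbour. Ccnd3 rose from 38.9 and 32.0 to 163 and 152 CPM, whereas Ccne2, a cyclin of S phase entry, fell from 294 and 307 to 100.6 and 102 CPM. The CDK4/6 inhibitor Cdkn2b rose 7.67-fold to 76.5 and 72.6 CPM, the CDK inhibitor Cdkn1c fell 6.29-fold, and Cdkn1a, a p53 target, fell by 0.80 on the log2 scale. Against the NE control (replicates 1 and 3), the list had 5 higher and 3 lower, while the change turned to 0.45 for Cdkn1a. Fitting all 14 libraries ended the call of Cdkn1a too.

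The BCL2 family, whose members guard or open the mitochondrial route to apoptosis, separated largely by role. Of 15 tested genes 6 were higher and 8 lower. Of the higher ones 4 are guardians. Bcl2 rose from 3.41 and 4.87 to 23.7 and 23.1 CPM, Bcl2l1 (BCL-XL) from 143 and 146 to 718 and 679 CPM, Bcl2l2 2.50-fold and Mcl1 2.00-fold. All 8 lower ones promote death. Bmf fell from 86.3 and 96.1 to 11.6 and 9.21 CPM, Bcl2l11 (BIM) from 68.8 and 67.0 to 16.3 and 17.0 CPM, and the log2 changes of Hrk, Bbc3 (PUMA) and Bok were -2.24, -1.20 and -1.18. Bax, Bik and Bad were lower by less (log2 changes -0.50, -0.50 and -0.35), and the call of Bad was lost with DESeq2. Bad was also not called without day 0 replicate 1 (-0.29) or without day 7 replicate 2 (-0.18). Bik was not called without day 0 replicate 2 (-0.33) or without day 7 replicate 1 (-0.42). Unlike these death promoters, the effector Bak1 rose from 24.6 and 30.6 to 119 and 105 CPM and the activator Bid 4.22-fold. Pmaip1 had 1 count in the 4 libraries. Where NE replicates 1 and 3 replaced day 0, the list had 5 higher and 3 lower, and the calls of Bcl2, Bbc3, Bok and Bad were lost, while the change turned to 0.07 for Bax and 0.18 for Bik. Bok, Bax, Bik and Bad lost the call when all 14 libraries were fitted.

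**Figure D4:**
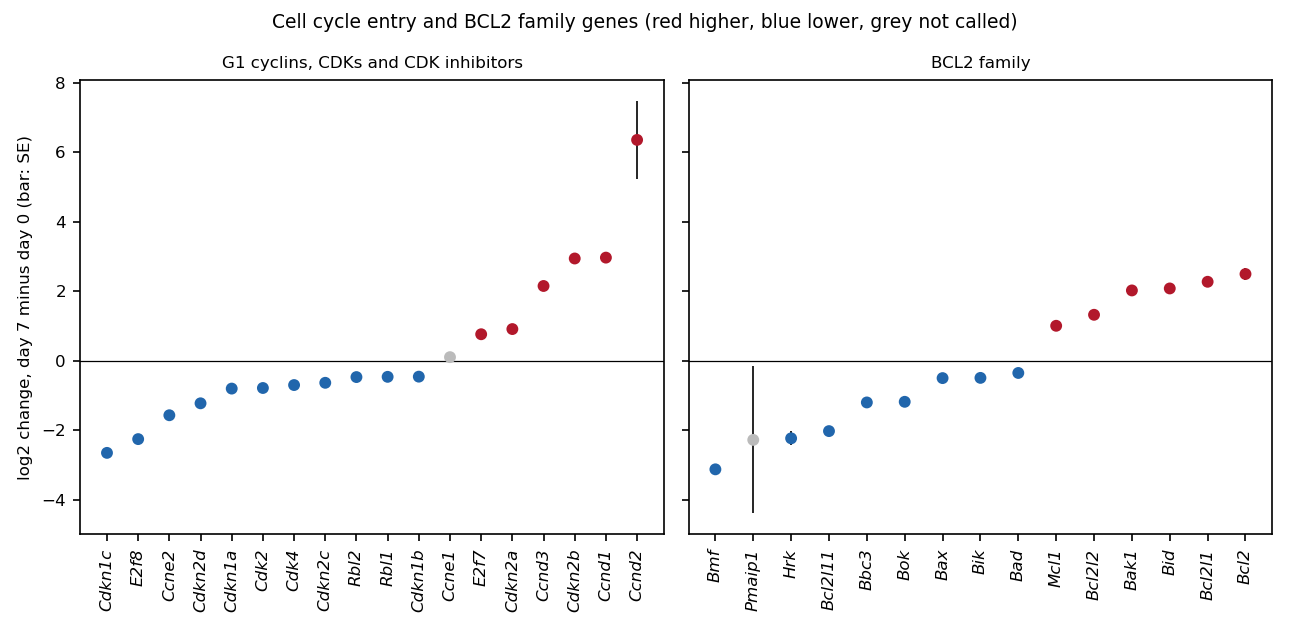
Points are fitted log2 changes of day 7 minus day 0 with bars of 1 SE (n = 2 libraries a day), red for called higher, blue for called lower and grey for not called. Ccnd1, Ccnd3 and Cdkn2b stand above 0 with Ccnd2, which is at about 1 CPM and has a wide error, and Bmf, Hrk and Bcl2l11 stand below 0 with Pmaip1, which rests on 1 count.

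Growth factor receptors and their ligands were more often higher than lower. Of 28 tested receptor tyrosine kinase and ligand genes 19 were higher and 4 lower (35 listed). The ephrin receptor Epha2 rose from 0.758 and 0.187 to 316 and 305 CPM, the EGF family ligand Hbegf from 5.69 and 5.53 to 269 and 264 CPM and the receptor Erbb2 from 10.6 and 11.1 to 60.2 and 61.1 CPM. Fgf1 had 3 counts in all at day 0 and 192 and 200 CPM at day 7. Egfr was at 91.2 and 93.75 against 102 and 98.2 CPM (adjusted p = 0.178). It was called higher with NE replicates 1 and 3 as the control (log2 change 1.15, adjusted p = 0.042). The 4 lower genes were the neural and stem cell receptors Ntrk2 (145 and 141 to 18.6 and 14.2 CPM), Ret, Kit and Ephb2. With NE replicates 1 and 3 in place of day 0, the list had 13 higher and 3 lower, and the call of Ret was lost, while the change turned to 0.84 for Ntrk2. Fitting all 14 libraries ended these calls too.

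TGF-beta and BMP genes had no net direction, with 13 higher and 13 lower of 30 tested, and 10 and 14 with library totals. The mediator Smad3 rose from 1.71 and 1.12 to 51.9 and 49.7 CPM and the receptor Tgfbr2 from 0.284 and 0.375 to 9.98 and 10.8 CPM. Id2 and Id3, inhibitors of basic helix-loop-helix factors, had log2 changes of -1.87 and -1.86. AP-1 factors, which often sit with TEAD at enhancers, were higher in 5 and lower in 3 of 12 (median 0.37), and in 7 and 1 with the NE control (median 1.47). The 5 and 3 are 41.7% and 25.0%, against 37.2% and 33.8% of all genes. Fosl2 rose from 80.3 and 89.7 to 511.5 and 510 CPM and Fos 4.76-fold. The log2 changes of Jun and Junb were -0.23 and -0.39, the call of Jun being lost without day 0 replicate 2 or day 7 replicate 1. Fosl1 was near 2 CPM, but 62.4% of its exon length overlaps another gene, so its low level is uncertain. Set against NE replicates 1 and 3, the TGF-beta and BMP list had 11 higher and 4 lower, and the call of Id2 was lost, while the change turned to 1.68 for Id3, 0.21 for Jun and 0.83 for Junb. Fitting all 14 libraries ended these calls too.

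Immune-facing genes rose in part. Of 14 tested chemokine, cytokine and surface ligand genes 12 were higher and 0 lower, but 14 of 28 listed failed the filter. Icam1, an adhesion ligand for leukocytes, rose from 1.04 and 1.59 to 633 and 607 CPM and the macrophage factor Csf1 from 1.33 and 1.69 to 189 and 190 CPM. Interferon response genes were higher in 17 and lower in 5 of 30. Isg15, a ubiquitin-like protein, rose from 1.04 and 0.843 to 9.56 and 12.6 CPM, and the list summed to 466 to 478 CPM at day 0 and 683 to 688 CPM at day 7. B2m, the light chain of MHC class I, rose from 10.1 and 10.2 to 155 and 153 CPM. The 20 MHC class I presentation genes gave 9 higher (45.0%) and 4 lower (20.0%), against 37.2% and 33.8% of all genes. Their median of 0.10 turned to -0.10 with library totals (7 and 7) and was 0.82 with the NE control (6 and 1). Interferon genes gave 16 higher and 0 lower with that control, with a median of 2.10 against 1.01. H2-Q genes are near-identical copies and their counts are uncertain.

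Metabolic genes moved less, and their direction depended on the list and the control. Of 32 cholesterol and fatty acid synthesis genes 23 were lower and 7 higher (median -0.56). The cholesterol enzymes Hmgcs1 and Sqle had log2 changes of -0.88 and -0.70, and the desaturase Scd2 fell from 3142 and 3066 to 1901 and 1954 CPM. Glycolysis and hypoxia genes were lower in 13 and higher in 7 of 28, and in 6 and 6 with the NE control, where the median went from -0.18 to 0.02. Gpi1 fell from 1542 and 1488 to 494 and 492 CPM and Ldha 1.90-fold, whereas the glucose carrier Slc2a1 rose from 264 and 265 to 414 and 429 CPM. With NE replicates 1 and 3 as the control the change of Ldha was -0.21 (adjusted p = 0.50). Oxidative phosphorylation genes were lower in 23 and higher in 10 of 48, none by 2-fold, and with library totals in 31 and 1. Of 71 tested ribosomal protein genes 27 were lower (38.0%) and 3 higher (4.2%), against 33.8% and 37.2% of all genes. Pseudogene copies make the counts of ribosomal protein genes uncertain. Lysosomal genes went up, 22 of 32 with 2 lower, but with library totals 17 and 9, and with the NE control 13 and 1. The cathepsin gene Ctsl rose from 172 CPM in both libraries to 355 and 364 CPM. Unfolded protein and stress response genes were higher in 14 and lower in 12 of 29, with a median of 0.17 that turned to -0.03 with library totals and was 0.67 with the NE control (11 higher and 0 lower). Against the NE control (replicates 1 and 3), the cholesterol and fatty acid synthesis list had 4 higher and 10 lower and the nuclear oxidative phosphorylation list had 0 higher and 10 lower, and the calls of Hmgcs1 and Ldha were lost. A fit of all 14 libraries did not call Hmgcs1, Sqle, Slc2a1 and Ctsl.

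Among the other steep or large changes, Slco2a1, a prostaglandin carrier, appeared from 0 at 143 and 135 CPM, and the lectin receptor Siglecg from 0 at 83.9 and 73.9 CPM. The small heat shock protein Cryab rose from 0.853 and 1.87 to 1912 and 1725 CPM. The steepest fall of a named gene was that of Dcpp2 (28.8 and 28.9 to 0.728 and 0.518 CPM, 45.5-fold). Dcpp1 and Dcpp3 fell too, but the 3 are near-identical copies that may share reads. Wif1, a Wnt inhibitor, fell from 21.2 and 26.8 to 0.831 and 1.04 CPM. The growth factor binding protein Igfbp5 fell from 1393 and 1511 to 165 and 141 CPM, and this call was lost in the fit of all 14 libraries (adjusted p = 0.0811). The stereocilia cadherin Cdh23 fell 18.8-fold from 15.1 and 14.6 CPM, but with NE replicates 1 and 3 as the control its change was 0.48 (adjusted p = 0.728).

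Day 7 was not a resting level for many of these genes. Between day 3 and day 7, 7785 of 13996 genes (55.6%) differed, and between day 7 and day 21, 7042 (50.3%) in the same edgeR fit. Both comparisons share the day 7 libraries with each other and with the one against day 0, so their values are given side by side. In the fit of all 14 libraries they gave 791 higher and 490 lower, and 274 higher and 241 lower. Ager stood at means of 1018 CPM at day 3 and 1963 CPM at day 21, and so was highest at day 7. Clic5 (15.6 and 902 CPM), Ankrd1 (16.5 and 459 CPM) and Ctgf (9.28 and 545 CPM at days 3 and 21) were higher at day 21 than at day 7 (log2 changes 0.66, 1.12 and 2.09). Ddc was at 97.7 CPM at day 3 and 51.5 CPM at day 21, above its day 7 level (log2 change 1.79 from day 7 to day 21). Insm1 went on down to 67.5 CPM at day 21, and Dcpp2 returned to 27.4 CPM. Vim, near 0 at day 7, was at 21.6 CPM at day 21, and Cav1 at 242 CPM.

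**Figure D5:**
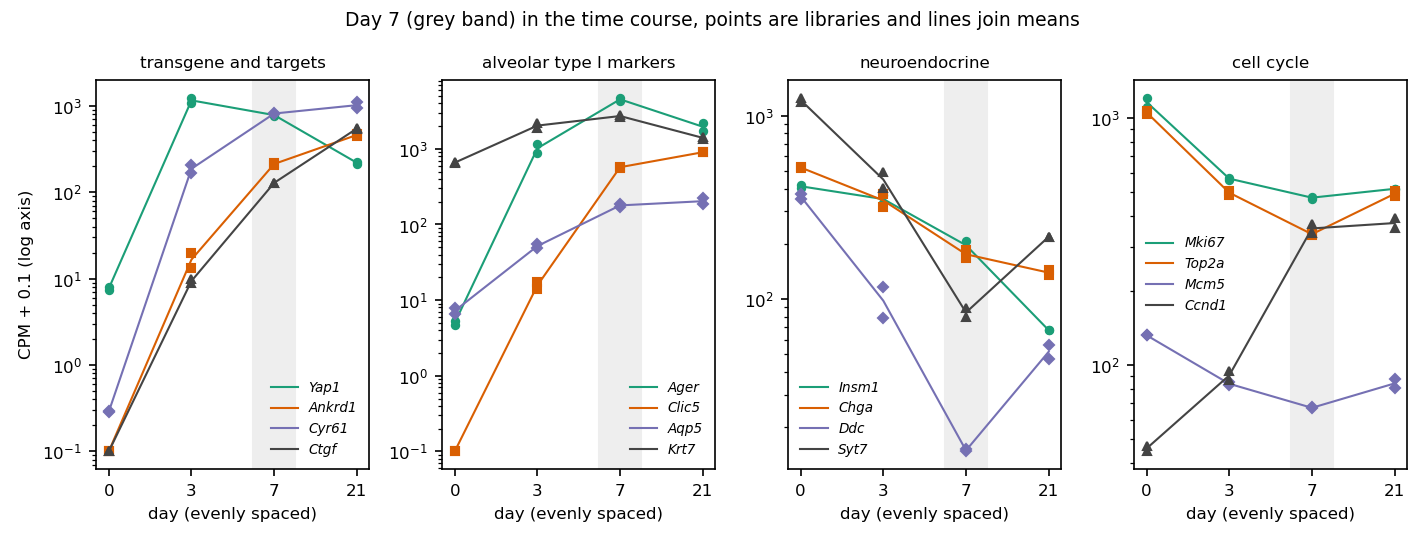
Levels as CPM + 0.1 on a log axis at days 0, 3, 7 and 21 (evenly spaced), with 1 point a library and lines through the means of n = 2. The grey band marks day 7, where Ager and Krt7 are highest and Ddc lowest, while Yap1 is already below its day 3 mean of 1153 CPM.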

How the data were processed

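Poly(A) RNA of the cultured tumour cells was taken with oligo(dT) beads and sequenced, per the labels' protocols. The submitters' processing notes name STAR 2.4.2, featureCounts and the build mm10. The annotation, strand setting and handling of multiply mapped reads are not given in the sources used here, and the protocol names no strand marking. The table as deposited by the authors holds raw counts for 32926 gene symbols in 14 libraries.

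The 8 YAP5SA libraries (2 a day) were fitted together with edgeR 4.0.16 in R 4.3.3 (TMM scaling, filterByExpr, robust quasi-likelihood F test, Benjamini-Hochberg adjustment over 13996 genes, calls under 0.05), with the contrast of day 7 minus day 0. SE is the log2 change over the square root of the F statistic, which can understate the error of large changes from few counts. CPM use the TMM-scaled library sizes. A day at 0 counts was set to a floor of 3 counts over its libraries (0.141 CPM at day 0, 0.156 at day 7), and 1 to 3 counts give a pooled ratio with a 95% exact interval, both covering counting error only. In simulated data of 13611 genes drawn for the day 7 against day 0 comparison, 87 of the 99 simulated 2-fold changes were called and 93 of the 100 of 4-fold. Calls were also made for 3 of the 13412 unchanged genes. Few genes were changed in the simulation, whereas 71.0% of tested genes were called in the data, so it does not test the TMM scaling.

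The 39 gene lists, the comparison and the named genes were chosen with earlier results of these data known. Named were Yap1 and the floxed genes, the 15 steepest called rises and falls (10 CPM or more on the higher day, separate days, no clone names), the 10 largest in CPM each way, the 10 highest genes that were at 0 on the other day, and members of the lists. Of 1044 listed symbols 2 were matched by synonym and 1 was unmatched. Coordinates are from GENCODE M21, and 91.6% of the symbols occur there. Exon overlap with other genes is named above for some genes only. Among others named it was 54.6% of the exon length for Sox4, 33.8% for Syp, 30.3% for Cdkn1c, 28.2% for Ctsl and 27.2% for Hopx. A planned motif share in 300-base promoters was replaced by the 250 bases before the start. Protein sequences were not used here, and some genes that these rules name are not reported here.

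Alternatives tried were scaling by library totals or DESeq2 size factors, filters of 1 CPM or none, DESeq2 1.42.0, voom of limma 3.58.1, a 2-fold threshold, other sets of libraries, NE replicates 1 and 3 as the control, the replicate block and leaving out each library. The fit with NE replicates 1 and 3 as the control held all libraries but NE replicate 2.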

Additional observations from a re-analysis of the deposited data

How the results depend on the processing

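Against 5208 genes higher and 4724 lower at day 7, testing against a 2-fold change gave 2047 and 1195 (1195 also being the count of genes lower by at least 2-fold, against 1796), the fit of all 14 libraries gave 2639 and 1950, and NE replicates 1 and 3 as the control gave 3154 and 2784. Of the 5208 higher genes 2826 were also called higher against the NE libraries and 51 were called lower. Of the 4724 lower genes 2247 were also called lower and 92 higher. In the fit of all 14 libraries, day 7 against day 3 gave 791 higher and 490 lower (against 4128 and 3657), and day 21 against day 7 gave 274 and 241 (against 3654 and 3388). The causes of these differences were not tested. With a minimum of 1 CPM in place of 5, 174 genes were at 0 on day 0 and expressed at day 7 and 6 the reverse, against 76 and 0. Leaving out each library gave 4721 to 4787 higher and 4175 to 4272 lower genes, and 2557 to 2592 higher and 1770 to 1815 lower by at least 2-fold, with the lone library of a day assumed to vary like the others. The replicate numbers did not pair the samples (correlation of deviations -0.04 between days 0 and 7), and the replicate block gave 5175 higher and 4699 lower. Of 781 genes of the lists or the naming rule that were called, 477 were called the same way and 10 the other way against the NE libraries, and 347 were not called in the fit of all 14. Against the NE libraries the log2 change turned to 0.48 for Cdh23, -0.75 for Tead3, -0.064 for Lats1, 0.46 for Dock5, 4.14 for Fstl1, 0.21 for Jun, 0.83 for Junb, -1.66 for Myc, -0.21 for Cdh1, 0.45 for Cdkn1a, 0.065 for Bax, 0.18 for Bik, 1.68 for Id3 and 0.84 for Ntrk2, and with library totals to -0.023 for Cdh1. The causes were not tested. Over the named genes and alternatives, 2955 values kept their direction and side of the threshold, 153 lost and 3 gained the call, and these 15 turned. Of 78 list counts 47 were identical without day 0 replicate 1, and the largest difference was 6 (ribosomal proteins). The shares of promoter motifs at 4-fold and 16-fold changes were not run, since too few genes had a promoter. At this depth, levels near 0.1 CPM could not be told from 0.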

Other observations

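Wnt pathway genes, not described above, were higher in 14 and lower in 7 of 27 tested (35 listed), against 37.2% and 33.8% of all genes. The ligand genes Wnt7a (0.474 and 0.375 to 149 and 148 CPM) and Wnt7b (0.6635 and 0.749 to 321 and 323 CPM) rose 341-fold and 448-fold, and Wnt4 rose from 54.0 and 58.1 to 418 and 390 CPM. Axin2 and Nkd1, feedback genes that canonical Wnt signals induce, fell from 24.9 and 24.0 to 4.885 and 5.38 CPM and from 70.05 and 77.5 to 15.5 and 15.1 CPM. Of the other ligand genes Wnt5a rose to a mean of 7.31 CPM and Wnt5b fell by 0.52 on the log2 scale, and the feedback genes Rnf43 and Znrf3 were not called. The call of Wnt5b was lost with NE replicates 1 and 3 as the control and in the fit of all 14 libraries. It was also lost without day 0 replicate 1 (-0.47) and without day 7 replicate 1 (-0.42). The list had 13 higher and 10 lower with library totals, and 11 and 6 with the NE control.

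Drug efflux and detoxification genes were higher in 13 (48.1%) and lower in 10 (37.0%) of 27 tested (30 listed), against 37.2% and 33.8% of all genes. Their median log2 change of 0.06 turned to -0.14 with library totals and was 0.84 with NE replicates 1 and 3 as the control (12 higher and 3 lower). Abcb1a, which encodes the efflux pump P-glycoprotein, had 1 count in all at day 0 and 28.1 and 27.85 CPM at day 7, and was at a mean of 10.0 CPM at day 21. Its neighbour Abcb1b appeared from 0 at 3.12 and 2.48 CPM. Gstm2, a glutathione transferase, rose 7.65-fold to 71.2 and 69.6 CPM, while Gstp1 fell from 89.6 and 82.2 to 37.9 and 40.3 CPM. Aldh1a1 rose from 48.5 and 45.2 to 144.5 and 155 CPM, and Aldh1a7 fell from 915 and 955.5 to 194 and 186 CPM.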
